A study of Luscinia megarhynchos and Luscinia luscinia with 4 samples.

Results

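The genes described here are the LOC genes of the germline-restricted chromosome (GRC) of 2 nightingale species that had any mRNA signal in a gonad. A few of them have a family or a likeness in the annotation of the study. A LOC symbol is the placeholder that NCBI gives to a gene model without an approved name. The symbols come from the collared flycatcher, *Ficedula albicollis*, whose coding sequences were used to annotate the nightingale GRCs. A LOC gene here is thus a nightingale GRC sequence that resembles a flycatcher gene model without an approved name. Of 799 genes in the deposited table, 272 had a LOC symbol. LOC genes were taken when the deposited expression value was above 0 in at least 1 library, and the hydin-like pair LOC101813248 and LOC101814235 was left out by symbol. This gave 147 LOC genes with 144 symbols, since LOC101808449 was listed under 3 protein identifiers and LOC107604464 under 2. A further 123 LOC genes were at 0 in every library. The genes just above that threshold were LOC101806537 at 2.66e-05 FPKM in the *L. luscinia* ovary, LOC101811542 at 0.00013 FPKM in the *L. megarhynchos* ovary and LOC101815637 at 0.000162 FPKM in the same ovary, and those just below it were at exactly 0. The LOC genes were thus selected on the FPKM of these same 4 libraries, and the levels that follow are a description of them.

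The GRC of songbirds is a chromosome that germ cells carry and all other body cells lack. It is lost from somatic lineages early in development, it is usually passed on by the mother, and it is expelled during meiosis in the male. Much of its gene content resembles genes of the ordinary chromosomes (A chromosomes), from which sequence has been copied onto it, often as incomplete copies.

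The mRNA came from 4 gonads of wild adult birds, namely the ovary of a *L. megarhynchos* female (common nightingale), the testis of a *L. megarhynchos* male, the ovary of a *L. luscinia* female (thrush nightingale) and the testis of a *L. luscinia* male. Each species and tissue was represented by 1 library from 1 bird, and no bird was treated. There were therefore no replicates, and no test between birds was made. A gonad holds germ cells and somatic cells in a proportion that was not measured, so fewer GRC-bearing cells and less RNA per such cell cannot be told apart. Of 19 marker genes for ovary, testis and germ cells, 1 was in this table of GRC genes. It was *SYCP1* (a protein of the meiotic synaptonemal complex), set as a testis marker. Its GRC entry had 0.365 and 0.011 FPKM in the *L. megarhynchos* ovary and testis, and 0.0681 and 0 FPKM in those of *L. luscinia*. It was thus higher in the ovary, and with this 1 gene the tissue labels could not be checked.

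Expression was given in FPKM, the reads of a gene scaled to its coding length in kilobases and to the size of the library, and then multiplied by the proportion of the gene found on the GRC of the species. The study describes the length of the gene on the GRC as the divisor, which differs from this, and the form given here is the one under which the deposited values came out as whole reads. By construction, a gene missing from the GRC assembly of 1 species is 0 in both gonads of that species. The libraries were scaled to 57644189 reads (*L. megarhynchos* ovary), 35404629 reads (*L. megarhynchos* testis), 36650197 reads (*L. luscinia* ovary) and 49987547 reads (*L. luscinia* testis). For 79 of the 147 LOC genes, those on the gene list of the study, whole reads could be recovered from the deposited values, while the other 68 have FPKM only. The study kept genes only when a minimum share of the coding region was found on the GRC of either species. It did so because short matches could be assigned to the wrong gene, and this caution applies to LOC genes outside the list. The 79 genes held 9113, 5438, 477 and 20309 reads in the 4 libraries in that order. Many of them rested on few reads, since 21 had fewer than 10 reads over all libraries and 30 had at least 100. Intervals of read ratios are exact 95% intervals of a conditional binomial, and they cover counting error only and say nothing of differences between birds. Only uniquely mapped reads were used, and reads from a similar A-chromosomal gene that align to the GRC copy, or the reverse, cannot be separated in these values. In each species the ovary came from the bird whose somatic genome was the reference, and the testis came from another bird. Whether misaligned reads differ between the tissues for this reason was not tested.

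In the *L. megarhynchos* ovary 81 LOC genes were above 0, where 24.8% of all 799 genes were. In the *L. megarhynchos* testis they numbered 90, where 22.9% of all genes were above 0. In the *L. luscinia* ovary 63 LOC genes were above 0 (17.5% of all genes), and in the *L. luscinia* testis 65 were (16.9% of all genes). Since the LOC genes were chosen for being above 0 somewhere, nothing is read from these counts against the background. Counted above 0, both *L. megarhynchos* libraries contained more of them than either *L. luscinia* library. At 0.1 FPKM or more the order changed, with 23 and 46 LOC genes in the *L. megarhynchos* ovary and testis and 16 and 35 in the *L. luscinia* ovary and testis. Over the libraries, 67 LOC genes were above 0 in *L. megarhynchos* only, 32 in *L. luscinia* only and 48 in both species. By tissue, 31 were above 0 in ovaries only, 37 in testes only and 79 in both tissues. Many genes with another symbol were also above 0 in 1 species only. Of the 217 above 0 in any library, 151 were above 0 in a *L. megarhynchos* gonad and 98 in a *L. luscinia* gonad. For the 147 LOC genes these numbers were 115 and 80. The same splits were not counted over all genes, so they are not read as a trait of LOC genes. The most frequent combinations were all 4 libraries (25 genes), both *L. megarhynchos* gonads and neither *L. luscinia* gonad (25 genes) and the *L. megarhynchos* testis alone (24 genes). Presence in every library often hung on single reads. Of the 25 genes above 0 in all 4 libraries, 22 had recovered reads, and in their weakest library 11 of these had 1 or 2 reads and 4 had at least 10.

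Most LOC genes had a low deposited FPKM, as did most genes with another symbol. The highest FPKM that a LOC gene reached in any library ranged from 2.66e-05 to 115.3, with a median of 0.0822. It was at least 1 FPKM for 35 genes and below 0.01 FPKM for 42 genes. The LOC genes on the gene list of the study had a median highest FPKM of 0.325, against 0.006 for those outside it, whose highest value was 3.24 FPKM (LOC101821108 in the *L. megarhynchos* testis). The list required a minimum share of the coding region on the GRC, and that share also scales the deposited values. The contrast is therefore not one of expression alone. Among the LOC genes above 0 in a library, the median was 0.0243 FPKM in the *L. megarhynchos* ovary and 0.105 FPKM in the *L. megarhynchos* testis. The same median was 0.0228 FPKM in the *L. luscinia* ovary and 0.17 FPKM in the *L. luscinia* testis. The genes with another symbol went the other way, with medians of 0.0128 and 0.0119 FPKM in the *L. megarhynchos* and *L. luscinia* ovaries and 0.00747 and 0.008 FPKM in the *L. megarhynchos* and *L. luscinia* testes. Of the 35 LOC genes that reached 1 FPKM, 30 had their highest value in a testis and 5 in an ovary. Of the 22 genes with another symbol that reached 1 FPKM, 4 had it in a testis and 18 in an ovary.

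**Figure D1:**
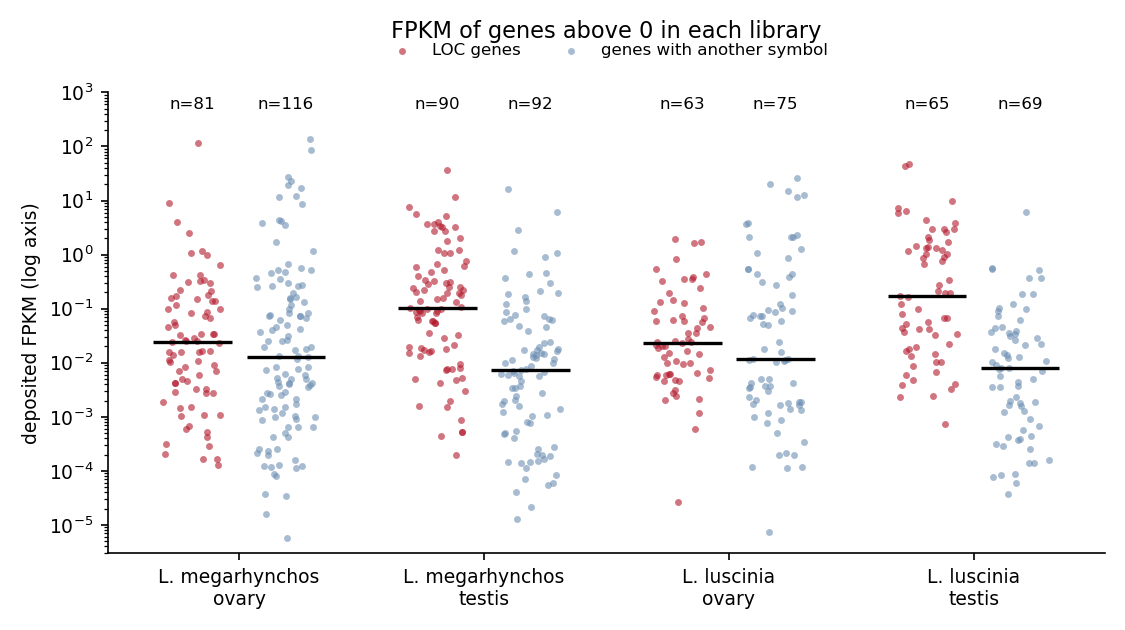
Deposited FPKM (log axis) of each gene above 0 in the 4 libraries, for LOC genes and for genes with another symbol, with each point a gene, black lines the medians and n the number of genes above 0. The medians of the LOC genes are 0.105 and 0.17 FPKM in the *L. megarhynchos* and *L. luscinia* testes, against 0.0243 and 0.0228 FPKM in the ovaries.

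LOC genes held most of the GRC signal in the testes and a minority of it in the ovaries. Their share of the summed FPKM was 27.6% in the *L. megarhynchos* ovary against 73.4% in the *L. megarhynchos* testis. In *L. luscinia* the share was 8.42% in the ovary against 66.5% in the testis. The hydin-like pair, which resembles a gene for a protein of the central apparatus of motile cilia (known from mouse), held another 0.0345% of the *L. megarhynchos* ovary, 5.43% of its testis, 3.5% of the *L. luscinia* ovary and 29.4% of its testis. Genes with another symbol thus held 72.4% and 21.1% in the ovary and testis of *L. megarhynchos*, and 88.1% and 4.09% in the ovary and testis of *L. luscinia*.

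A handful of genes made up these shares. The 5 highest LOC genes of each library held 94.7% of the FPKM of LOC genes in the *L. megarhynchos* ovary, 59.7% in its testis, 63.6% in the *L. luscinia* ovary and 71.0% in its testis. With the 5 highest taken out of both the LOC genes and the total of the library, LOC genes held 1.99% of the FPKM left in the *L. megarhynchos* ovary and 52.7% of that in its testis, and 3.23% of the *L. luscinia* ovary and 36.5% of its testis. Most of the *L. megarhynchos* ovary signal was a single gene, LOC101808355, with 7519 of the 9113 reads of LOC genes (82.5%). In both testes the LOC gene with the most reads was LOC101813524, which held 19.0% of the reads of LOC genes in *L. megarhynchos* and 39.6% in *L. luscinia*.

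**Figure D2:**
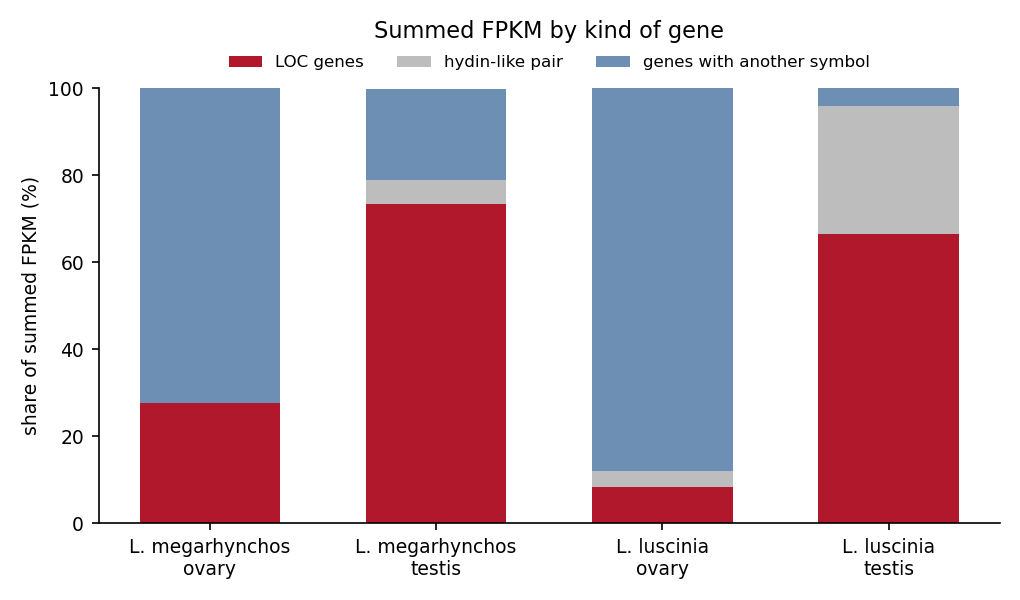
Share of the summed FPKM of each library (%) held by the 147 LOC genes, the hydin-like pair and the genes with another symbol. The LOC genes hold 73.4% and 66.5% in the *L. megarhynchos* and *L. luscinia* testes, against 27.6% and 8.42% in the ovaries.

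Ovary and testis were compared within each species as log2 of ovary over testis, with 0.1 FPKM added to both values, and a difference of at least 4-fold was called. The added 0.1 FPKM understates the differences of weakly expressed genes. In *L. megarhynchos*, 6 of 115 LOC genes were at least 4-fold higher in the ovary, where 9.36% of all genes tested were. In the same pair of libraries 22 LOC genes were at least 4-fold lower in the ovary, where again 9.36% of all genes were. In *L. luscinia*, 2 of 80 LOC genes were at least 4-fold higher in the ovary (10% of all genes) and 21 were at least 4-fold lower (12.2% of all genes). LOC genes made up 88.0% of all genes called lower in the ovary in *L. megarhynchos* and 95.5% in *L. luscinia*. They were 115 of the 267 genes tested in *L. megarhynchos* and 80 of the 180 tested in *L. luscinia*. Apart from the hydin-like LOC101813248, the genes called lower that were not LOC genes were *THRSP* and *CHD5*, both in *L. megarhynchos*. Genes with another symbol leaned to the ovary instead, with 19 called higher in the ovary of *L. megarhynchos* and 16 in that of *L. luscinia*. For *L. megarhynchos* the median log2 over the LOC genes tested was -0.11, and for *L. luscinia* it was -0.22, while the median over all genes rounded to 0.0 in both species. These medians say little of the weak LOC genes, since the added 0.1 FPKM is above the 0.0822 FPKM that the median LOC gene reached at most. With 0.01 FPKM added, 43 LOC genes were called lower in the *L. megarhynchos* ovary, and the share of all genes was not counted at that setting.

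**Figure D3:**
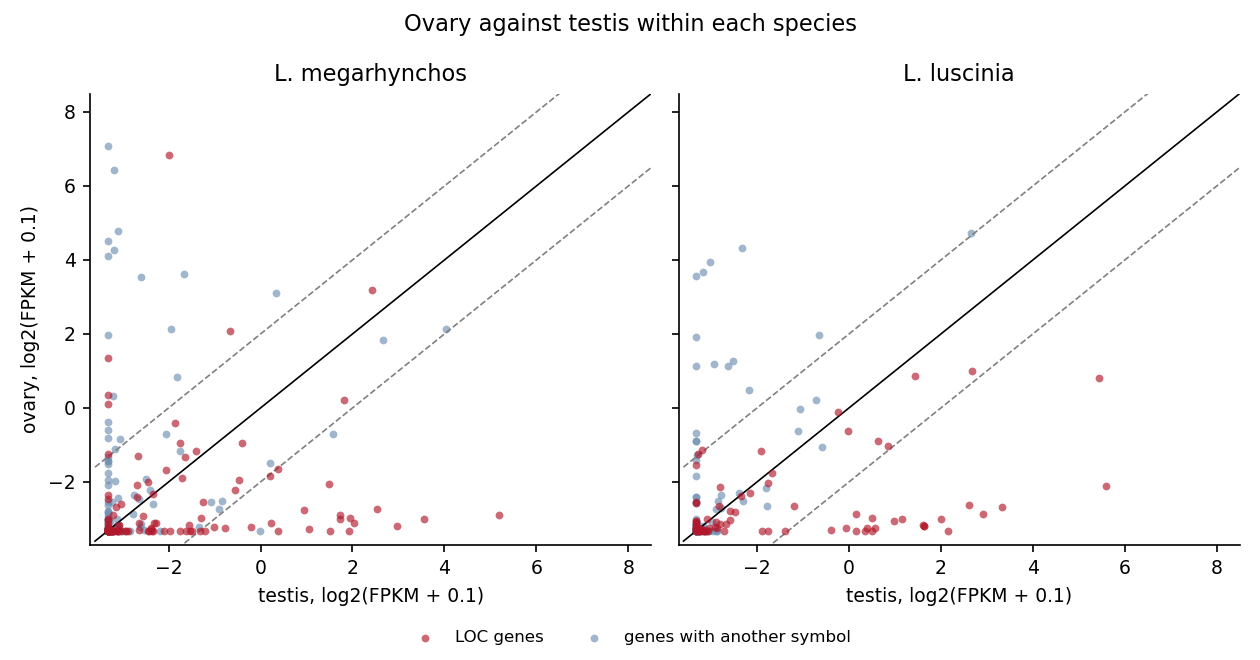
Ovary against testis as log2(FPKM + 0.1) for each gene above 0 in either gonad of a species, LOC genes and genes with another symbol, with the solid line marking equal values and the dashed lines 4-fold differences. Below the lower dashed line lie 22 LOC genes in *L. megarhynchos* and 21 in *L. luscinia*, and above the upper one lie 6 and 2.

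The LOC genes called in each comparison overlapped partly between the species. In all 32 LOC genes were at least 4-fold lower in the ovary in 1 species or the other, and 11 were in both, which is 50% of the *L. megarhynchos* genes and 52.4% of the *L. luscinia* genes. Over all genes of the table, 12 were called lower in the ovary in both species. This is 48.0% of the *L. megarhynchos* list and 54.5% of the *L. luscinia* list. Of these 12 genes, 11 are the LOC genes themselves, so the shares cannot show whether the overlap is particular to LOC genes. No LOC gene was called in opposite directions. Of the LOC genes called lower in the *L. megarhynchos* ovary, 8 were at 0 in both *L. luscinia* gonads, and of those called lower in the *L. luscinia* ovary, 4 were at 0 in both *L. megarhynchos* gonads. These zeros were not counted over all genes. Among the 48 LOC genes above 0 in both species, the testis was higher in both for 26, the ovary was higher in both for 9, and the tissues changed order for 13. Scaled to the same summed FPKM, these were 27, 9 and 12. This split was not counted over all genes, so agreement between the species is not read as a trait of LOC genes.

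**Figure D4:**
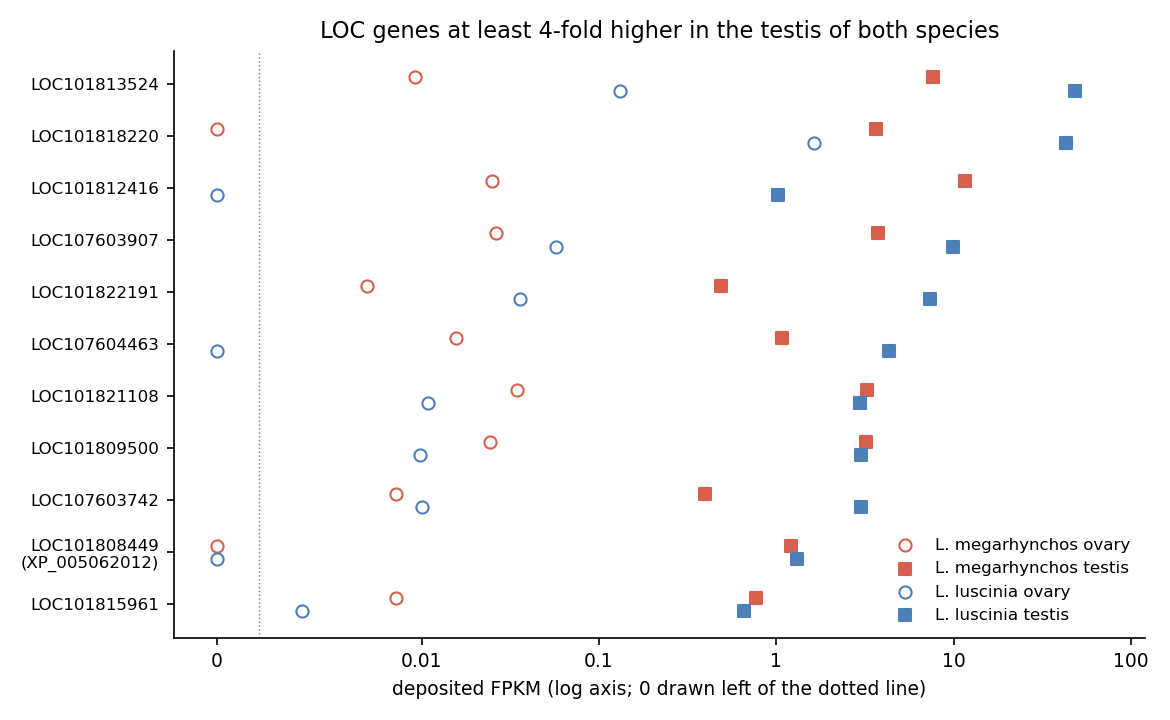
Deposited FPKM (log axis, values of 0 drawn left of the dotted line) in the 4 libraries for the 11 LOC genes at least 4-fold higher in the testis of both species, ordered by their highest value. Open circles (ovaries) lie left of filled squares (testes) of the same species for each gene.

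No function is known here for any of the 11 genes, and 3 of them (LOC107603742, LOC101815961 and LOC101821108) are named because of this result, after their values were seen. The most abundant was LOC101813524. It had 0.00918 FPKM in the *L. megarhynchos* ovary (2 reads) against 7.7 FPKM in the testis (1031 reads), and 0.131 FPKM in the *L. luscinia* ovary (16 reads) against 48.3 FPKM in the testis (8034 reads). Its testis values were above both ovary values, and the *L. luscinia* testis was the highest of the 4 libraries. The testis over ovary ratio of its reads was 839.3 in *L. megarhynchos* (231.8 to 6939.7) and 368.2 in *L. luscinia* (226.6 to 644.4).

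LOC101818220 was second in the *L. luscinia* testis by deposited FPKM. By the adjusted length it ranked 5 among the LOC genes with recovered reads, where LOC101822191 ranked 2 and the LOC101808449 entry XP_005062010 ranked 3. It had 0 FPKM in the *L. megarhynchos* ovary against 3.67 FPKM in the testis (97 reads), and 1.64 FPKM in the *L. luscinia* ovary (51 reads) against 43.2 FPKM in the testis (1832 reads). With 3 reads as the limit for the *L. megarhynchos* ovary, the testis was at least 52.6-fold higher in that species (exact lower limit 42.0), and the ratio in *L. luscinia* was 26.3 (19.9 to 35.5). In the *L. luscinia* ovary the other 10 genes had at most 16 reads where reads were recovered.

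The next 3 genes reached between 7.4 and 11.6 FPKM in a testis. LOC107603907 had 0.0262 FPKM in the *L. megarhynchos* ovary against 3.75 FPKM in the testis, and 0.0569 FPKM in the *L. luscinia* ovary against 9.94 FPKM in the testis. LOC101822191 had 0.00493 FPKM in the *L. megarhynchos* ovary against 0.486 FPKM in the testis, and 0.036 FPKM in the *L. luscinia* ovary against 7.4 FPKM in the testis. LOC101812416 had 0.0248 FPKM in the *L. megarhynchos* ovary against 11.6 FPKM in the testis, and 0 FPKM in the *L. luscinia* ovary against 1.02 FPKM in the testis. The first 2 were higher in the *L. luscinia* testis than in the *L. megarhynchos* testis, and LOC101812416 was the reverse. Their testis over ovary ratios of reads were, in *L. megarhynchos* and *L. luscinia*, 143.3 (55.5 to 528.8) and 174.9 (80.1 to 477.3) for LOC107603907 and 98.5 (26.7 to 822.6) and 205.5 (117.5 to 398.2) for LOC101822191. LOC101812416 rested on 1 read in the *L. megarhynchos* ovary and none in the *L. luscinia* ovary. Its testis over ovary ratio was 467.3 (83.2 to 18520.1) in *L. megarhynchos*, and its testis was at least 13.2-fold higher in *L. luscinia* when 3 reads stood for 0 (exact lower limit 10.4).

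Of the remaining genes, LOC101809500 and LOC101821108 had nearly the same deposited FPKM in both testes. LOC101809500 had 0.0243 and 3.21 FPKM in the ovary and testis of *L. megarhynchos*, and 0.00982 and 3.02 FPKM in those of *L. luscinia*. LOC101821108, for which reads could not be recovered, had 0.0345 and 3.24 FPKM in the *L. megarhynchos* ovary and testis and 0.0109 and 2.97 FPKM in the *L. luscinia* ovary and testis. The read ratios of LOC101809500, testis over ovary, were 131.9 (60.2 to 361.1) in *L. megarhynchos*, against 307.4 (105 to 1492.9) in *L. luscinia*. With its adjusted length as divisor, an alternative added after seeing the data, LOC101809500 was at 13.59 in the testis of *L. megarhynchos* and 48.55 in that of *L. luscinia*, so the near equality depends on how the proportion is used. LOC107604463 had 0.0156 FPKM in the *L. megarhynchos* ovary against 1.08 FPKM in the testis, and 0 FPKM in the *L. luscinia* ovary against 4.33 FPKM in the testis (284 reads). By deposited FPKM, unlike the 2 genes before it, this gene was higher in the testis of *L. luscinia* than in that of *L. megarhynchos*. By the adjusted length LOC107604463 was at 9.208 in the testis of *L. megarhynchos* and 12.84 in that of *L. luscinia*. The contrast with LOC101809500 did not hold with that divisor, since both genes were then higher in *L. luscinia*. LOC107603742 and LOC101815961 were at most 0.01 FPKM in both ovaries, and the testes of *L. megarhynchos* and *L. luscinia* had 0.396 and 2.99 FPKM of LOC107603742 and 0.772 and 0.661 FPKM of LOC101815961. The last of the 11, the LOC101808449 entry XP_005062012, was at 0 in both ovaries and at 1.21 and 1.31 FPKM in the *L. megarhynchos* and *L. luscinia* testes.

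Several testis genes were above 0 in the birds of 1 species only. A gene missing from the GRC assembly of the other species is at 0 there by construction. Which of the genes below were missing was not examined, so these zeros are not read as absence of expression. LOC101810338 had the highest testis value of *L. megarhynchos*, 36.3 FPKM from 659 reads, against 0.0338 FPKM from 1 read in the ovary, and was at 0 in both *L. luscinia* gonads. LOC101821172 had 0.0162 FPKM in the *L. megarhynchos* ovary against 3.97 FPKM in the testis (2 and 301 reads). Both ovary values thus came from 1 or 2 reads. LOC101818158 had 0 FPKM in the *L. megarhynchos* ovary against 2.75 FPKM in the testis (98 reads), which puts the testis at least 53.2-fold higher against 3 reads (exact lower limit 42.4). LOC101819595 had 0.00322 FPKM in the *L. megarhynchos* ovary against 1.99 FPKM in the testis (1 and 380 reads). All 4 genes were at 0 in both *L. luscinia* gonads. In the other direction, LOC101807535 had 0.0627 FPKM in the *L. luscinia* ovary against 6.0 FPKM in the testis (2 and 261 reads). LOC101811078 had 0.025 FPKM in the *L. luscinia* ovary against 3.9 FPKM in the testis (2 and 425 reads). These 2 were at 0 in both *L. megarhynchos* gonads.

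The LOC genes that were higher in the ovary were fewer, and 1 stood far above the rest. LOC101808355 had 115.3 FPKM in the *L. megarhynchos* ovary (7519 reads) against 0.15 FPKM in the testis (6 reads), and was at 0 in both *L. luscinia* gonads. Its ovary over testis ratio of reads was 769.7 (353.5 to 2098.0), in the direction opposite to most abundant LOC genes. Whether LOC101808355 was missing from the *L. luscinia* assembly was not examined. LOC101816890 was the single LOC gene called higher in the ovary in both species. It had 2.46 FPKM in the *L. megarhynchos* ovary (233 reads) against 0 FPKM in the testis, and 0.351 FPKM in the *L. luscinia* ovary (30 reads) against 0.00858 FPKM in the testis (1 read). The ovary was at least 47.7-fold higher in *L. megarhynchos* against 3 reads (exact lower limit 38.5), and the ratio in *L. luscinia* was 40.9 with a wide interval (6.8 to 1669.3). LOC101806579 had 1.17 FPKM (33 reads) and LOC101811308 had 0.974 FPKM (54 reads) in the *L. megarhynchos* ovary, and both were at 0 in the 3 other libraries. The further genes called were LOC107604199, at 0.325 FPKM in the *L. megarhynchos* ovary alone and named after its value was seen, LOC101817233, at 0.323 FPKM in the *L. luscinia* ovary against 0.00323 FPKM in the testis, and LOC107603367, which belongs to a family described next. With the libraries scaled to the same summed FPKM, LOC107604199 (log2 of 1.41) and LOC107603367 (1.13) were no longer called in *L. megarhynchos*.

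A few LOC genes have a family or a likeness in the annotation of the study. Retroviral genes of the ERVK group are remains of retroviruses that once inserted into the germline of an ancestor. The ervk-18-like LOC107603367 had 4.09 FPKM in the *L. megarhynchos* ovary (240 reads) against 0.528 FPKM in the testis (19 reads), and 0.241 FPKM in the *L. luscinia* ovary (9 reads) against 0 FPKM in the testis. It was 7.76-fold higher in the ovary of *L. megarhynchos* by reads (4.86 to 13.1). The ervk-25-like LOC107604299 ran the other way, with 0.139 FPKM in the *L. megarhynchos* ovary against 2.71 FPKM in the testis, and 0.437 FPKM in the *L. luscinia* ovary against 1.44 FPKM in the testis. It rested on 3 and 36 reads in *L. megarhynchos* and 6 and 27 reads in *L. luscinia*, and its testis over ovary ratio was 19.5 (6.17 to 99.2) and 3.3 (1.33 to 9.77) in these species. The other ervk-25-like gene, LOC107604464 (XP_016161146), had 0.421 FPKM in the *L. megarhynchos* ovary against 0.659 FPKM in the testis, and 0.146 FPKM in the *L. luscinia* ovary against 0.196 FPKM in the testis. Its ovary over testis ratios of 0.639 (0.354 to 1.15) and 0.744 (0.226 to 2.19) had intervals that included 1, so no tissue difference was detectable at this depth. The retroviral LOC genes thus showed no common tissue.

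The zinc-finger gene LOC101813323, like znf239, was among the 6 highest LOC genes of 3 libraries. Zinc-finger genes of this kind encode proteins that bind DNA. It had 9.03 FPKM in the *L. megarhynchos* ovary (435 reads) against 5.24 FPKM in the testis (155 reads), and 1.73 FPKM in the *L. luscinia* ovary (53 reads) against 2.63 FPKM in the testis (110 reads). The order of the tissues changed between the species, since its ovary over testis ratio was 1.72 (1.43 to 2.08) in *L. megarhynchos*, against 0.657 (0.464 to 0.92) in *L. luscinia*. With the libraries scaled to the same summed FPKM both directions turned round, to log2 values of -0.94 in *L. megarhynchos* and 0.36 in *L. luscinia*, and the species still differed in their order. The study calls 3 more LOC genes uncharacterised while listing them among its more complete genes. Of these, LOC107604341 had 0.136 and 0.0554 FPKM in the *L. megarhynchos* ovary and testis and 0.388 and 1.7 FPKM in the *L. luscinia* ovary and testis. LOC107603709 had 0.651 and 0.177 FPKM in the *L. megarhynchos* ovary and testis, and 0.0244 and 0.0179 FPKM, 1 read each, in the *L. luscinia* ovary and testis. LOC101816049 had 0.0282 and 0.306 FPKM in the *L. megarhynchos* ovary and testis and 0.0145 and 0.0424 FPKM in the *L. luscinia* ovary and testis. Of the 3, LOC107604341 was highest in the *L. luscinia* testis, LOC107603709 in the *L. megarhynchos* ovary and LOC101816049 in the *L. megarhynchos* testis.

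At least 0.1 FPKM in every library was reached by 6 LOC genes: LOC101813323, LOC107604299, LOC107604464 (XP_016161146), LOC107604624, LOC107603488 and LOC107604486. The same count was not made over all genes. LOC107604624 had a similar ratio of reads in both species as deposited, with 1.06 FPKM in the *L. megarhynchos* ovary against 3.44 FPKM in the testis and 1.91 FPKM in the *L. luscinia* ovary against 6.33 FPKM in the testis. Its ovary over testis ratios of reads were 0.307 (0.22 to 0.424) and 0.301 (0.23 to 0.39) in *L. megarhynchos* and *L. luscinia*. With the libraries scaled to the same summed FPKM its log2 values were -3.22 in *L. megarhynchos* and -0.74 in *L. luscinia*, so the likeness held on the deposited scale alone. LOC107604486 was the most even of the 6, with 0.301 and 0.22 FPKM in the *L. megarhynchos* ovary and testis and 0.196 and 0.215 FPKM in the *L. luscinia* ovary and testis. LOC107603488 had 0.218 FPKM in the *L. megarhynchos* ovary against 1.21 FPKM in the testis, and 0.349 FPKM in the *L. luscinia* ovary against 0.165 FPKM in the testis. The tissue order of this gene also differed between the species, with ovary over testis ratios of 0.181 (0.116 to 0.274) and 2.11 (1.17 to 3.91).

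The species were compared within each tissue as log2 of *L. megarhynchos* over *L. luscinia*, again with 0.1 FPKM added. Each value carries the proportion of the gene found on the GRC of its own species, and the share of cells with a GRC in each gonad is unknown, so these are differences between deposited values. In the ovaries, 11 of 110 LOC genes were at least 4-fold higher in *L. megarhynchos* (10.5% of all genes) and 3 were at least 4-fold lower (4% of all genes). When the 4 libraries were scaled to the same summed FPKM, these became 3 higher and 7 lower, so the balance of the ovary comparison turned with the scale. In the testes, 15 of 116 LOC genes were at least 4-fold higher in *L. megarhynchos* (8.88% of all genes) and 14 were at least 4-fold lower (7.72% of all genes). With the same scaling these became 21 and 13, and the share of all genes was not counted under this scaling. Genes called higher included some at 0 in both *L. luscinia* gonads, such as LOC101810338 in the testes and LOC101808355 in the ovaries. Genes called lower included some at 0 in both *L. megarhynchos* gonads, such as LOC101807535 in the testes and LOC101817233 in the ovaries. A gene missing from an assembly is at 0 by construction, and which of these genes were missing was not examined. LOC genes were 65.2% of all genes called higher and 70.0% of all genes called lower in the *L. megarhynchos* testis, and 116 of the 259 genes tested there. The median log2 over LOC genes was 0.02 in the ovaries and 0.07 in the testes, against 0.02 and 0.01 over all genes.

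**Figure D5:**
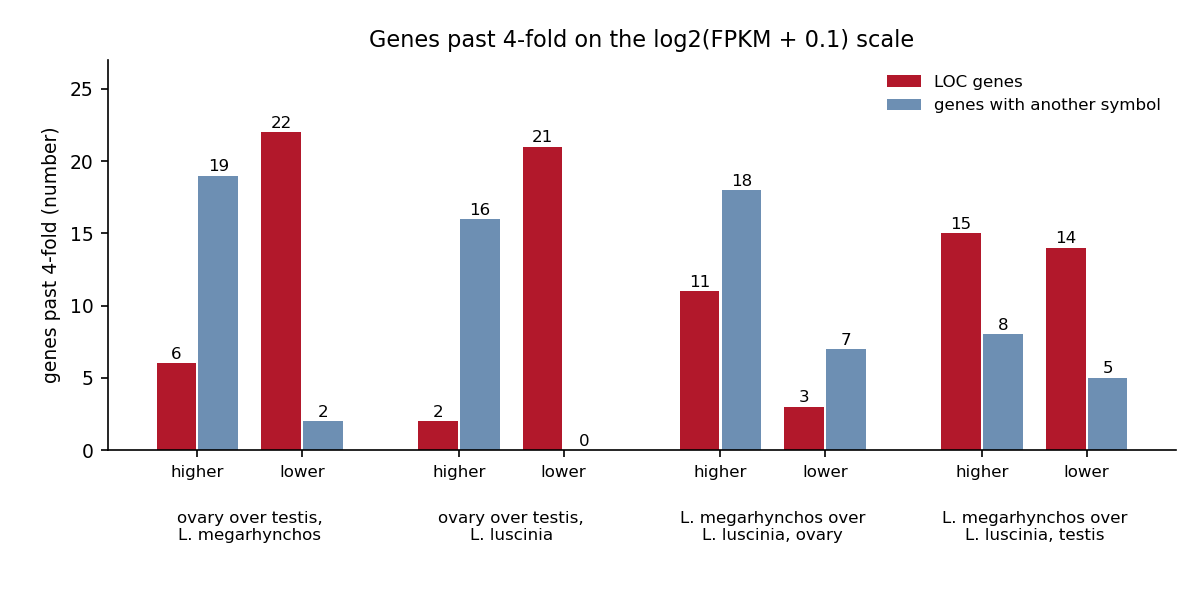
Number of LOC genes and of genes with another symbol at least 4-fold higher or lower in each of the 4 comparisons on the log2(FPKM + 0.1) scale. In both tissue comparisons the LOC genes are mostly lower in the ovary (22 and 21 genes) and the other genes mostly higher (19 and 16 genes).

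Some differences between the species were seen in genes above 0 in at least 1 gonad of each species. LOC101818220, with the values given above, had a log2 difference of -4.12 in the ovaries and -3.52 in the testes, both lower in *L. megarhynchos*. Its *L. megarhynchos* ovary value was 0 FPKM. LOC101812486 had 0.0506 FPKM in the *L. megarhynchos* ovary against 0.834 FPKM in the *L. luscinia* ovary, and 5.68 FPKM in the *L. megarhynchos* testis against 0.747 FPKM in the *L. luscinia* testis. It was the reverse of LOC101818220 in the testes, with a log2 difference of 2.77, while its ovary difference was -2.63. The ovary values of LOC101812486 rested on 2 reads in *L. megarhynchos* and 9 in *L. luscinia*, and the testis values on 138 and 11. With the adjusted length as divisor it was at 0.3125 and 0.9493 in these ovaries, a smaller difference, and at 35.11 and 0.8507 in the testes. LOC107603883 was higher in *L. luscinia* in both tissues, with 0.151 FPKM in the *L. megarhynchos* ovary against 0.547 FPKM in the *L. luscinia* ovary and 0.082 FPKM in the *L. megarhynchos* testis against 0.89 FPKM in the *L. luscinia* testis. LOC101809575 had 0.00759 FPKM (1 read) in the *L. megarhynchos* testis against 1.32 FPKM (199 reads) in the *L. luscinia* testis.

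Across LOC genes above 0 in both libraries of a pair, log2 FPKM correlated with r = 0.598 between the ovaries (34 genes, rho = 0.619) and r = 0.55 between the testes (39 genes, rho = 0.551). Between ovary and testis it was r = 0.409 in *L. megarhynchos* (56 genes, rho = 0.309) and r = 0.389 in *L. luscinia* (48 genes, rho = 0.383). The corresponding r for genes with another symbol was 0.754 between the ovaries (28 genes), 0.423 between the testes (19 genes), 0.677 within *L. megarhynchos* (57 genes) and 0.797 within *L. luscinia* (46 genes). These are correlations across genes, which are not independent replicates. In every pair both values of a gene share its coding length, and within a species they also share its proportion on the GRC. The differences between the coefficients were not tested. With at least 0.1 FPKM in both libraries, the r within *L. megarhynchos* was -0.002 over 16 LOC genes.

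The place of the flycatcher counterparts was not used in choosing the LOC genes by expression. The flycatcher gene was on a sequence record without a chromosome for 65 of the 147 LOC genes (44.2%), against 24 of the 217 expressed genes with another symbol (11.1%). The share was 40.7% in the 123 LOC genes at 0 in every library, close to that of the expressed ones. Among the 32 LOC genes called lower in the ovary in either species, 16 were on such unplaced records (50%). Among the 7 called higher in the ovary, 1 was (14.3%), and among the 108 called in neither direction, 48 were (44.4%). These shares were not tested.

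Some LOC genes were also neighbours in the flycatcher. By the running numbers of the flycatcher coding sequences, 27 LOC entries fell into 11 runs on 1 record each. The numbers of neighbouring entries lay at most 3 apart, and 4 of these runs were on unplaced records. Entries of 1 symbol were counted separately, and such runs were not counted over all genes. The longest run had 5 entries, LOC101809500, the 3 entries of LOC101808449 and LOC107604356. The first 4 entries, 3 of them of 1 symbol, were higher in the testis in each species where they were above 0. The LOC101808449 entry XP_005062011 had 0 FPKM in both *L. megarhynchos* gonads, and 0.0246 FPKM in the *L. luscinia* ovary against 2.14 FPKM in the testis. The entry XP_005062010 had 0 FPKM in the *L. megarhynchos* ovary against 0.255 FPKM in the testis, and 0.00533 FPKM in the *L. luscinia* ovary against 0.852 FPKM in the testis. Entries of 1 symbol can share sequence, so the split of reads among them is uncertain. LOC107604356, at the end of the run, did not follow, with 0.345 FPKM in the *L. megarhynchos* ovary against 0.281 FPKM in the testis and 0 FPKM in both *L. luscinia* gonads. Its ovary over testis ratio was 1.23 (0.78 to 1.97).

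In the next run, the ervk-25-like LOC107604464 pair lay near LOC107604463. LOC107604463 was among the testis genes of both species described above, and neither entry of the retroviral pair was. LOC107604464 (XP_016161147) had 0.0967 FPKM in the *L. megarhynchos* ovary against 0 FPKM in the testis, and 0.101 FPKM in the *L. luscinia* ovary against 0.124 FPKM in the testis. LOC101811078, the *L. luscinia* testis gene, was adjacent to the hydin-like pair. Of that pair, LOC101813248 had 0.175 FPKM in the *L. megarhynchos* ovary against 8.23 FPKM in the testis, and 4.12 FPKM in the *L. luscinia* ovary against 71.9 FPKM in the testis. LOC101814235, the nearer of the pair, had 0.231 FPKM in the *L. luscinia* ovary against 0 FPKM in the testis. It was at 0 in both *L. megarhynchos* gonads. LOC101814042, on the other side of the pair, was at most 0.00195 FPKM in every library and was named for its position after its value was seen. Neighbouring entries thus did not all share a tissue.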

How the data were processed

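The 4 mRNA libraries (NEB Ultra II stranded mRNA kit, single-end 150 bp reads) were made from 1 ovary and 1 testis per species. After trimming (Trimmomatic 0.39), the authors mapped reads with STAR 2.7.9a to a reference that held both the somatic genome and the GRC assembly of that species, and counted those placed uniquely in GRC exons, annotated with flycatcher coding sequences. Which program counted them, and whether it used strand, is not given in the sources used here. Values were deposited by the authors as FPKM with decimal commas, in 1 column per library for 799 genes, with no columns of comparisons and 0 unused columns of samples.

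FPKM was used as deposited. For the 192 genes on the list of the study, the coding length and adjusted proportion given there turned each FPKM into reads, and 100% of values above 0 came out whole within 0.01 reads. The recovery step was also tested on simulated data built with the same scaling, so that test cannot check the scaling itself. The 68 LOC genes outside the list have unknown depth. With 1 library per group no p-value or spread was computed. A difference was called at 4-fold on the log2(FPKM + 0.1) scale, over genes above 0 in either library. A count of 0 was taken as at most 3 reads. The software was Python 3.11.15 with scipy 1.17.1, pandas 2.3.3 and numpy 2.4.6.

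Named genes are the 6 highest LOC genes per library, the 4 largest differences in each direction of each comparison, LOC genes that the study gives a family or calls uncharacterised, those at 0.1 FPKM or more in every library, and entries adjacent to a named one. The genes and lists were chosen with earlier results of these data known. Alternatives were other minimums, pseudocounts, scalings and merged identifiers. No genome or sequences were used, so no coordinates or sequences are given.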

Additional observations from a re-analysis of the deposited data

Results flagged for a closer look

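The ovary and testis changed order between the species, with both counting intervals off 1, for 2 of the 37 LOC genes that had recovered reads in both species. LOC107603488 had an ovary over testis ratio of reads of 0.181 (0.116 to 0.274) in *L. megarhynchos*, against 2.11 (1.17 to 3.91) in *L. luscinia*. The zinc-finger gene LOC101813323 had ratios of 1.72 (1.43 to 2.08) in *L. megarhynchos*, against 0.657 (0.464 to 0.92) in *L. luscinia*, and both of its directions turn round when libraries are scaled to the same summed FPKM. The difference between the species was not tested, since each ratio sets 1 bird beside another. Of the other genes, 12 had the testis above the ovary in both species and 2 the ovary above the testis, with intervals off 1. A further 21 had an interval that included 1 in at least 1 species. These counts were not made for genes with another symbol, so they are not read as a trait of LOC genes.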

How the results depend on the processing

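The lean of LOC genes to the testis kept its direction under every alternative run, while the counts depended on the low values. LOC genes above 0 in the *L. megarhynchos* ovary and testis and the *L. luscinia* ovary and testis numbered 23, 46, 16 and 35 at 0.1 FPKM or more, 6, 19, 3 and 23 at 1 FPKM or more, and 22, 33, 12 and 31 at 10 reads or more. Their shares in the same order were 1.99%, 52.7%, 3.23% and 36.5% of the FPKM left without the 5 highest LOC genes, 18.2%, 60.4%, 4.49% and 78.2% of reads on listed genes, and 22.4%, 75.6%, 5.37% and 89.8% with the adjusted length as divisor, an alternative chosen after seeing the data.

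For the alternatives below only LOC genes were counted, and the share of all genes called is known for the main setting alone. With a pseudocount of 0.01 FPKM, the LOC genes called lower in the ovary were 43 in *L. megarhynchos* and those called higher were 5 in *L. luscinia*. The same pseudocount gave 21 higher and 10 lower in the *L. megarhynchos* ovary than in the *L. luscinia* ovary, and 37 higher and 26 lower in the testis. With a pseudocount of 1 FPKM, 1 was higher and 9 lower in the ovary of *L. megarhynchos*, and 0 higher and 7 lower in that of *L. luscinia*. Between the species it gave 2 higher and 0 lower in the ovary and 3 higher and 5 lower in the testis. Over genes of at least 1 FPKM, 0 were higher in the *L. luscinia* ovary than in its testis, and between the species 5 were higher and 1 lower in the ovary and 9 higher and 13 lower in the testis, where 15 and 14 were as deposited. By reads, chosen after seeing the data, 1 was higher in the *L. luscinia* ovary than in its testis. With the adjusted length as divisor, 8 were lower in the *L. megarhynchos* ovary than in the *L. luscinia* ovary.

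Scaling to the same summed FPKM shifts log2 by -1.74 for ovary over testis in *L. megarhynchos* and 0.97 in *L. luscinia*, and by -2.03 in the ovary and 0.69 in the testis between the species. It gave 4 higher and 32 lower (11.1% higher, against 21.4% as deposited) in the *L. megarhynchos* ovary than in its testis, 3 and 7 (30.0% against 78.6%) for the ovaries and 21 and 13 (61.8% against 51.7%) for the testes. Of 130 comparisons of the 37 named genes, 7 were no longer called under it, 10 became called and 0 called differences changed direction.

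The correlation across LOC genes, at 0.1 FPKM or more in both libraries, with 10 reads or more in both, leaving out the 2 genes most distant from the x median, and as Spearman's rho, was 0.355, 0.59, 0.607 and 0.619 between the ovaries and 0.402, 0.539, 0.616 and 0.551 between the testes. In the same order it was -0.002, 0.587, 0.436 and 0.309 within *L. megarhynchos* and 0.455, 0.298, 0.335 and 0.383 within *L. luscinia*. The causes of these changes were not tested. No paired analysis was possible because each species and tissue had 1 library from a different bird. No spread between birds can be had from these data, and the depth limits what can be said of genes with 1 or 2 reads.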
